A study of Mus musculus with 56 samples.

Results

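Of the 47069 gene rows, 8 endothelial marker genes (Pecam1, Cdh5, Kdr, Plvap, Emcn, Egfl7, Esam and Cldn5) were followed across single cells cultured from the mouse pituitary. The 8 genes are a list of known endothelial markers, found in the table by their symbols, and all 8 had a row. The study put dispersed pituitary cells into the chambers of a microfluidic capture plate, made full-length cDNA from each with a SMART-Seq kit and sequenced 56 wells, named here by plate row and column. All 56 wells belonged to 1 untreated group from female C57BL/6 mice, given as 10 to 12 weeks old in one label and as randomly cycling at 3 weeks in another. For each preparation 5 whole pituitaries were pooled, dispersed with collagenase and pancreatin, and kept in culture for 4 days before the cells were detached with trypsin. The suspended cells were then stored in RNA-Best, the study's RNA-stabilising buffer, which all 56 wells share, and they were filtered and loaded on a chip for small cells. No label assigned a well to an animal or a culture, so the 56 wells were treated as 1 sample, and all values are descriptions without a test. Levels are given as CPM, a gene's count for every 1000000 counts over all gene rows, with the synthetic spike-in RNAs left out.

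Endothelial cells line blood vessels, and in the anterior pituitary they form fenestrated sinusoids through which releasing factors arrive and hormones leave. They hold together by junctions in which Cdh5 (VE-cadherin), Pecam1 (CD31), Esam and Cldn5 (claudin 5) take part. Kdr is the main signalling receptor for VEGF-A, Plvap builds the diaphragms of fenestrae and caveolae, Emcn (endomucin) is a sialomucin of venous and capillary endothelium, and Egfl7 is a secreted factor of the vessel wall whose gene also hosts a microRNA. Cldn5 is best known from tight vessels such as those of the brain.

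The promoters of Kdr, Emcn and Egfl7 are shown because these genes were high in the same wells, and that of Cldn5 because it was the marker that no well held at 1 CPM. RefSeq promoters on GRCm38.p6 matched 4 of the 8 genes by symbol, and Pecam1, Cdh5, Plvap and Esam were not among them. Each line gives the 250 bases before the start on the gene's own strand, and capitals mark GGAAG on either strand, the core sequence bound by ETS factors. Of the 3 windows listed for Egfl7, the one with the fewest exonic bases (1) is printed. The windows lie at chr5:75978456-75978705 (minus strand) for Kdr, chr3:137340828-137341077 (plus) for Emcn, chr2:26583615-26583864 (plus) for Egfl7 and chr16:18776597-18776846 (plus) for Cldn5.
Kdr: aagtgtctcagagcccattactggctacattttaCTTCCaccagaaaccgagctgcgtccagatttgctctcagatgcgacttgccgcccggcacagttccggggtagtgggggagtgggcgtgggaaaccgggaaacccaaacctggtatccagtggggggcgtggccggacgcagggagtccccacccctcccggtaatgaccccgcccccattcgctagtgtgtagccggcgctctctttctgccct
Emcn: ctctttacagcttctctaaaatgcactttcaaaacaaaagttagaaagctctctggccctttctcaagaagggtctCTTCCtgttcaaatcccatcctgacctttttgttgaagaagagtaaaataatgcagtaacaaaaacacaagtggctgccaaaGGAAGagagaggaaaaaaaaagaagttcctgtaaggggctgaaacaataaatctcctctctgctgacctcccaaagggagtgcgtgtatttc
Egfl7: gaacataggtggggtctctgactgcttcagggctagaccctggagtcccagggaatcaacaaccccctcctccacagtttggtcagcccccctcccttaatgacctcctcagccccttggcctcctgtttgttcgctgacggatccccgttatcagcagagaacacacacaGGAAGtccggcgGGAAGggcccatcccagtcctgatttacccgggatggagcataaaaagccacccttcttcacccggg
Cldn5: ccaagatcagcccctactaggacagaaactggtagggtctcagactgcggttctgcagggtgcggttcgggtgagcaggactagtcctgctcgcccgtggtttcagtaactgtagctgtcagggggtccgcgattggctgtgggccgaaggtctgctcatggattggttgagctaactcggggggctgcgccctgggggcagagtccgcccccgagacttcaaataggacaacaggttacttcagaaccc
The core occurred 1 time in the Kdr window, 2 times in that of Emcn, 2 times in that of Egfl7 and 0 times in that of Cldn5. The same 5 letters occurred in 64.1% of all 32851 promoter windows of this length, with a median of 1 site, so a match is a description of these letters and not a site shown to be bound. The GC box GGGCGG, searched on both strands, occurred 2 times in the Kdr window, 0 times in those of Emcn and Egfl7 and 1 time in that of Cldn5. Of all windows, 32.7% held at least 1, and no match of one motif overlapped one of the other in the printed windows. The Egfl7 counts depend on the window. In those not printed, the core and the GC box occurred 4 and 0 times at chr2:26580833-26581082 and 0 and 4 times at chr2:26586386-26586635.

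In the GRCm38 annotation all 8 are protein-coding genes. Kdr (ENSMUSG00000062960.10) spans bases 75932827 to 75978458 of chromosome 5 on the minus strand, and Pecam1 (ENSMUSG00000020717.19) spans 106654217 to 106750628 of chromosome 11 on the minus strand. Cdh5 (ENSMUSG00000031871.8, 104101625 to 104144511, plus) and Plvap (ENSMUSG00000034845.5, 71497765 to 71511752, minus) both lie on chromosome 8. Emcn (ENSMUSG00000054690.17) lies at 137341067 to 137432185 of chromosome 3, Egfl7 (ENSMUSG00000026921.18) at 26580014 to 26593120 of chromosome 2, Esam (ENSMUSG00000001946.13) at 37528078 to 37538319 of chromosome 9 and Cldn5 (ENSMUSG00000041378.1) at 18776847 to 18778262 of chromosome 16, all on the plus strand. Cdh5 overlaps Gm29682 in the annotation, Plvap overlaps Gtpbp3 and Egfl7 overlaps Agpat2 on the opposite strand, and whether the counting used strand is not given in the sources used here. In well H4, where Plvap and Egfl7 were highest, Gtpbp3 stood at 0.0422 CPM and Agpat2 at 0 CPM. The Cldn5 model has 1 exon of 1416 bases, while the others have 6 to 29 exon blocks.

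Gene counts per well ran from 357 to 12563266 with a median of 711525, and 46 wells had at least 100000. Spike-ins took between 0.144% and 74.9% of all counts in a well, with a median of 7.95%. Wells C10 and C11 were the most alike pair (r = 0.96 of log2(CPM + 1) across genes, against 0.85 for the next pair), and wells B6 and H10 held under 2000 gene counts. None of these 4 wells held a marker at 100 CPM, and without B6 and H10, or without C11, the numbers of wells with several markers and with one were still 3 and 3.

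A few wells held the markers. At 100 CPM or more, 3 of 56 wells held several of the 8 genes (5.36%, exact Clopper-Pearson 95% interval 1.12 to 14.9%), 3 wells held exactly one and 50 wells held none. Such intervals cover counting error only, and reads of amplified cDNA are not independent molecules. Wells H4 and F6 each held 6 of the 8 genes, well H7 held 2, and no well held 3, 4 or 5. Among all gene rows, 3.27% were at 100 CPM or more in H4, 3.11% in F6 and 2.15% in H7. Wells A2, H9 and B4 held a single gene each, beside 0.361%, 2.4% and 1.85% of all gene rows.

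**Figure D1:**
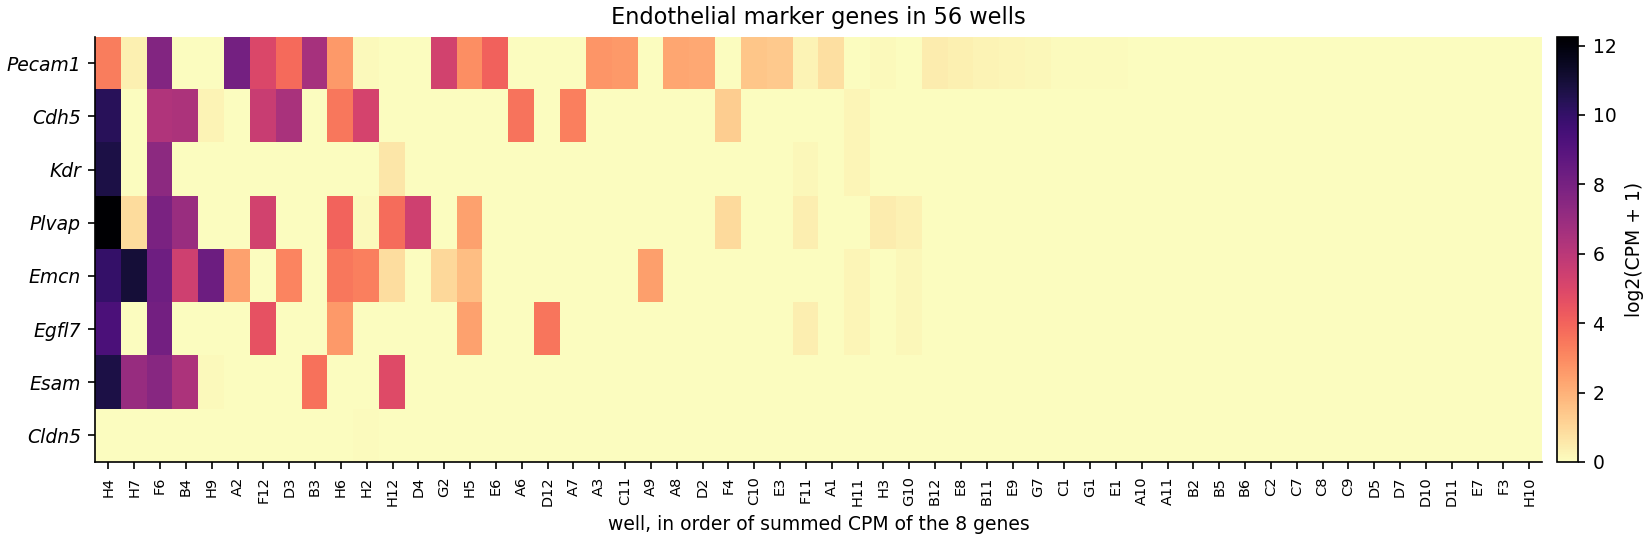
Level of each marker gene (rows) in each of the 56 wells (columns, in order of the summed CPM of the 8 genes), with colour giving log2(CPM + 1). The dark block at the left holds H4, with 6 genes at 100 CPM or more, and F6, also with 6, while H7 is dark for Emcn and Esam only and the row of Cldn5 is empty.

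Just inside the limit of 100 CPM stood Plvap in B4 at 124 CPM, which rested on 3 counts, and Esam in H7 at 129 CPM, on 311 counts. Just outside the limit stood Pecam1 in B3 at 93.5 CPM, Cdh5 in D3 at 88.0 CPM, Cdh5 and Esam in B4 at 82.7 CPM each, from 2 counts each, and Cdh5 in F6 at 77.3 CPM. At 10 CPM, 9 wells held several of the genes and 8 held one, and with spike-ins in the total or at 100 TPM (transcript level, that is counts per exon length scaled to a total of 1000000) 1 well in place of 3 held exactly one. On the TPM scale H7 held Emcn only, so that 2 wells held several.

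Well H4 was the highest of the 56 wells for 5 of the 8 markers, against 3.35% of the 28155 genes with a count in any well. Its 4033125 gene counts included 45030 of the 8 genes, a summed level of 11165 CPM. Plvap stood at 4885 CPM from 19701 counts, which made 43.8% of the marker counts of this well. Kdr stood at 1681 CPM, Esam at 1672 CPM and Cdh5 at 1267 CPM, each the highest of any well. Emcn stood at 1013 CPM and Egfl7 at 638 CPM. Pecam1, by contrast, gave 36 counts or 8.93 CPM, and Cldn5 gave 0 counts, where 3 counts would be worth 0.744 CPM. That value reflects read depth only and does not cover transcripts lost before sequencing. Thus 6 markers of the junction, the fenestral diaphragm, VEGF signalling and the vessel wall were present together in one well in which CD31 was low and claudin 5 was not detected. Corrected for exon length, the order in H4 was Plvap at 5187 TPM, Esam at 1230 TPM, Cdh5 at 636 TPM, Emcn at 395 TPM, Kdr at 393 TPM, Egfl7 at 376 TPM and Pecam1 at 3.02 TPM. Emcn, Kdr and Egfl7 were nearly level on this scale, and with 1 well no spread can be put on the order.

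Well F6 held the same kind of set at lower levels and in other proportions. Its 4165437 gene counts included 5996 of the 8 genes, 1439 CPM in sum. Emcn stood at 308 CPM, Egfl7 at 280 CPM and Plvap at 234 CPM. Pecam1 stood at 200 CPM, Esam at 180 CPM and Kdr at 160 CPM. Cdh5 was below the limit at 77.3 CPM from 322 counts, and Cldn5 again gave 0 counts, where 3 counts would be worth 0.720 CPM. Per exon length, Plvap led at 200 TPM, followed by Egfl7 at 133 TPM, Esam at 106 TPM and Emcn at 96.3 TPM, with Pecam1 at 54.4 TPM, Cdh5 at 31.1 TPM and Kdr at 29.9 TPM. Plvap was first in both wells, and Egfl7 was second in F6 but last but one of the 7 detected markers in H4.

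Set side by side, the level in H4 was 20.8 times that in F6 for Plvap, 16.4 times for Cdh5, 10.5 times for Kdr and 9.29 times for Esam. The ratio was smaller for Emcn, at 3.29, and for Egfl7, at 2.28. Pecam1 went the other way and was 22.4 times higher in F6. These are ratios of 1 well to another and carry no replicate check.

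Well H7 was different in kind. Emcn reached 2040 CPM there from 4920 counts, the highest value of any well, and Esam 129 CPM. Both together made up nearly all of the marker counts of this well, 94.0% for Emcn and 5.94% for Esam. Plvap gave 2 counts, Pecam1 0.7 of a count (the deposited counts are partly fractional), and Cdh5, Kdr, Egfl7 and Cldn5 gave 0 of 2411963 gene counts. Per exon length Emcn stood at 465 TPM in H7 and 395 TPM in H4.

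Among the wells with one marker, H9 also held Emcn, at 320 CPM from 3410 counts, with Cdh5 at 2 counts, Esam at 1 and Kdr, Plvap and Egfl7 at 0. A2 held Pecam1 at 270 CPM from 62 counts, the highest Pecam1 of the 56 wells, and otherwise 1 count of Emcn. B4 was a shallow well of 24176 gene counts in which 8 counts fell on 4 markers: Plvap had 3, Cdh5 and Esam had 2 each and Emcn had 1. With the added demand of 10 counts B4 no longer passed, while A2 and H9 did.

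Across all 56 wells the markers ranged from undetected to frequent at trace level. Pecam1 was the most widespread: it was at 1 CPM or more in 16 wells (28.6%, interval 17.3 to 42.2%), yet in 22 of the 30 wells in which it had any count it had 3 counts or fewer. Its counts were fractional in 17 wells, against 1 well for Cldn5 and 0 for each other marker. Its spread is thus not directly comparable with theirs, and the part of shared reads in it was not tested. Emcn reached 1 CPM in 11 wells, Cdh5 in 10 and Plvap in 8. Egfl7 and Esam each did so in 6 wells, and Kdr in 2, H4 and F6. Cldn5 was at 1 CPM in 0 of 56 wells, and its only trace was 0.5 of a count in H2. In 17 wells 3 counts were worth 1 CPM or less. By the rule of 3 (3 divided by 17), and not by an exact interval, 0 of these 17 allows a share of up to 17.6%. In the shallower wells a level of 1 CPM corresponded to fewer than 3 counts and could be missed. At least 1 marker had some count in 40 wells, and at least 2 had in 19 wells.

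The markers also differed in how far 1 well carried their total. H4 held 91.3% of the summed CPM of Kdr over all wells, 91.2% of that of Plvap, 79.5% of that of Esam, 77.8% of that of Cdh5 and 66.3% of that of Egfl7. H7 held 54.2% of the summed CPM of Emcn, and A2 held 38.2% of that of Pecam1. Kdr was the cleanest divider of wells: after 1681 CPM in H4 and 160 CPM in F6, the next well, H12, stood at 0.536 CPM. Cdh5 stepped down less sharply, from 1267 CPM in H4 to 88.0 CPM in D3 and 82.7 CPM in B4.

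Some wells without any marker at 100 CPM held one or a pair of them above the trace level. In H2, the deepest well, Cdh5 gave 450 counts or 35.8 CPM and Emcn 109 counts or 8.68 CPM. In H12 Esam gave 103 counts or 27.6 CPM and Plvap 46 counts or 12.3 CPM. In A7 Cdh5 gave 64 counts, and in G2 Pecam1 gave 40.5 counts. In D3, a well of 261284 gene counts, Cdh5 gave 23 counts, and in B3 Pecam1 gave 41.9 counts. D3 also held the highest Rgs5 of all wells, 746 CPM, a pericyte gene, and the highest Ptprb, 103 CPM from 27 counts, the gene of the endothelial phosphatase VE-PTP. The other mural cell genes Pdgfrb, Des, Cspg4 and Kcnj8 had no counts in D3.

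Low counts of the markers were also read outside the 3 wells with several. Among the 15 wells of plate columns 4 to 6 and 10 to 12 in which spike-ins took over 30% of counts, 7 held at least 1 count of a marker other than Pecam1, and 4 held counts of at least 3 markers. These wells had a median of 96289 gene counts, and the highest single count of a marker in them was 6. Their 50.1 marker counts were 27.9% Plvap, 24.2% Pecam1, 21.9% Cdh5 and 14.0% Egfl7, and 0 were Kdr, which had 6781 counts in H4. In the 5 such wells of the other plate columns, 2 held a count of a marker other than Pecam1, and among the 33 wells with fewer spike-ins 12 did. Counts of at least 3 markers were held by 0 of these 5 wells and by 7 of the 33. B4, one of the 15, also held 5 counts of Angpt2 and 2 each of Ecscr, Eng, Flt4 and F11r. Of the 15, A10, A11, B5, D5, D11, D12 and E6 held no count of any of these genes. H4 and F6 lie in the same plate columns, and the part of plate position in these traces was not tested.

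In addition, 24 other genes known from endothelium were read in the same wells. In H4, 10 of the 24 stood at 100 CPM or more, in F6 5, in H9 2 and in H7 0. Of 21560 protein-coding genes, 6.41% were at 100 CPM or more in H4, 6.40% in F6 and 3.54% in H7. In H9 the share of all gene rows was 2.4%. Numbers as small as those of H9 and H7 say little against such shares. Their sum was 9253 CPM in H4, 1681 CPM in F6 and 840 CPM in H9, against 15.9 CPM in H7, whose Emcn was the highest of all wells. In the 50 wells with no marker the sum had a median of 1.84 CPM and a highest value of 1029 CPM, in H5, where Flt1 alone gave 1010 CPM. Only 4 of those 50 wells held any of the 24 at 100 CPM, each a single gene, namely Flt1 in H5, Cd34 in C7, Podxl in H2 and Ptprb in D3.

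Among the 10 in H4 were Ecscr, an endothelial surface protein of cell migration, at 2281 CPM, Eng (endoglin, a TGF-beta co-receptor) at 1856 CPM and Robo4, a guidance receptor of vessels, at 1707 CPM. Cd34 stood at 894 CPM, Flt1 (the decoy-like VEGF receptor) at 806 CPM and Myct1 at 446 CPM. The remaining ones at the limit were Cd93 at 391 CPM, Icam2 at 370 CPM, Podxl at 304 CPM and Tal1 at 187 CPM. Of the 24, 13 gave 0 counts in H4, among them the angiopoietin receptor Tek, its partner Tie1, and the transcription factors Sox17, Sox18, Sox7 and Erg. F6 held 4 of the 10 genes of H4 at 100 CPM, Ecscr at 388 CPM, Eng at 277 CPM, Robo4 at 156 CPM and Cd93 at 144 CPM. The other gene at the limit in F6 was Ramp2, a subunit of the adrenomedullin receptor, at 233 CPM and 0 in H4.

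The transcription factors differed between both wells, mostly at low levels, and whether a 0 there was a missed transcript was not tested. Sox7 stood at 65.1 CPM in F6, Fli1 at 48.3 CPM, Sox18 at 26.2 CPM and Erg at 11.0 CPM, and F6 was the highest of the 56 wells for each. In H4 only Fli1 of these was present, at 9.92 CPM from 40 counts, while Tal1 was at 187 CPM in H4 and 0 in F6. In all, 9 of the 24 genes were at 0 counts in H4 and present in F6, 1 was the reverse, and 4 were at 0 in both. F6 gave counts of 19 of the 24 genes and H4 of 11, although H4 had the higher sum. Over all gene rows, F6 also gave counts of more genes, 11571 against 8451 in H4. A higher number in F6 is thus not particular to the 24 genes.

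**Figure D2:**
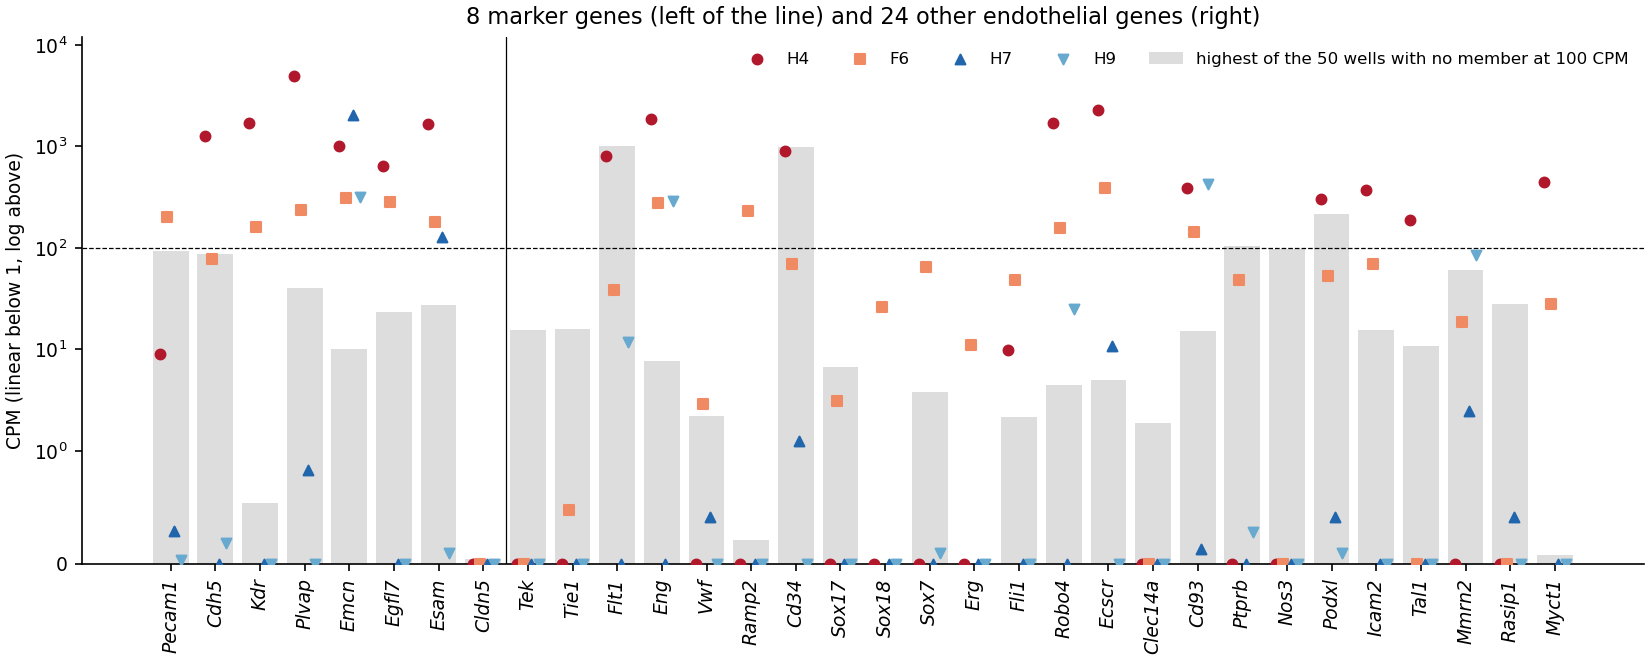
CPM of the 8 marker genes and of 24 other endothelial genes in H4, F6, H7 and H9 (points; the axis is linear below 1 and logarithmic above), with grey bars for the highest of the 50 wells with no marker at 100 CPM and a dashed line at 100 CPM. H4 lies above the bars for Cdh5, Kdr, Plvap, Emcn, Egfl7 and Esam but below the bar for Pecam1, and it is at 0 for Tek, Tie1, Ramp2 and the Sox genes where F6 has points for all but Tek.

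The receptors and ligands of the VEGF family were unequally held. Besides Kdr and Flt1, H4 held Flt4, the receptor of VEGF-C, at 985 CPM and Nrp2 at 191 CPM, and Nrp1 at 1 count. F6 held Nrp1 at 109 CPM, Kdr at 160 CPM, Flt1 at 38.7 CPM and Flt4 at 24.5 CPM. Neither Nrp1 nor Nrp2 was particular to these wells. Nrp2 was highest in H7, at 491 CPM, and stood at 373 CPM in H3, while Nrp1 was highest in E7, at 4164 CPM. Neither H3 nor E7 held a marker at 100 CPM. None of the 5 ligands had a count in H4, and F6 had 32 counts of Vegfa. Vegfa was at 1 CPM or more in 34 of the 56 wells, with its highest value, 393 CPM, in D3. Of the 2 wells with Kdr at 1 CPM, H4 thus had no Vegfa and F6 had 7.68 CPM of it.

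Of the angiopoietin and Notch genes, Angpt2, which is made by endothelium and antagonises Tek, stood out. It was at 8588 CPM in H4, 1797 CPM in F6, 1048 CPM in H9 and 281 CPM in H7, and its highest value in the 50 wells without a marker was 123 CPM, in H2. Angpt2 was therefore at 100 CPM in all 3 wells with several markers. Dll4, Hey1 and Tek gave 0 counts in H4 and in F6, and Notch1 stood at 18.2 CPM in F6 and 0 in H4. Of the junction genes that are not specific to endothelium, F11r (JAM-A) stood at 1568 CPM in H4 and 232 CPM in F6, and Ctnnb1 (beta-catenin, which binds the tail of VE-cadherin) at 378 CPM and 181 CPM. Neither was particular to these wells. F11r was at 100 CPM in 8 wells and highest in H3, at 2079 CPM. Ctnnb1 was at 100 CPM in 7 wells, with 346 CPM in A8, and neither H3 nor A8 held a marker at 100 CPM. Tjp1, Ocln and Jam2 were at 4 counts or fewer in both wells.

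Genes of other non-hormonal cells were also read. Of the 7 mural genes, 0 were at 100 CPM in H4 (sum 6.13 CPM) and 1 in F6, Kcnj8 at 329 CPM (sum 334 CPM), with Pdgfrb, Rgs5, Des and Cspg4 at 0 in both, and the 50 wells without a marker summed to between 0 and 755 CPM. H9 held Acta2 at 514 CPM. Of the 6 fibroblast genes, Dcn was the one with counts in H4, at 38.7 CPM, and F6 had 0 counts of any. The 7 macrophage genes summed to 2.23 CPM in H4 and 92.4 CPM in F6, against a median of 37.1 CPM in the 50 wells. The 5 erythroid genes summed to 197 CPM in H4 and 58.2 CPM in F6, near the median of 58.2 CPM in the 50 wells. The 4 platelet genes summed to 0 and 0.240 CPM, and the 6 folliculostellate and stem cell genes to 0 in both. The medians of the 50 wells were 0.487 CPM and 0, and 3 of these 6 genes had no count in any well. Of the 4 lymphatic genes, Flt4 was high in H4, but Prox1 gave 1 count, Pdpn 3 and Lyve1 0, as in all 56 wells. Their part in the marker levels was not tested.

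**Figure D3:**
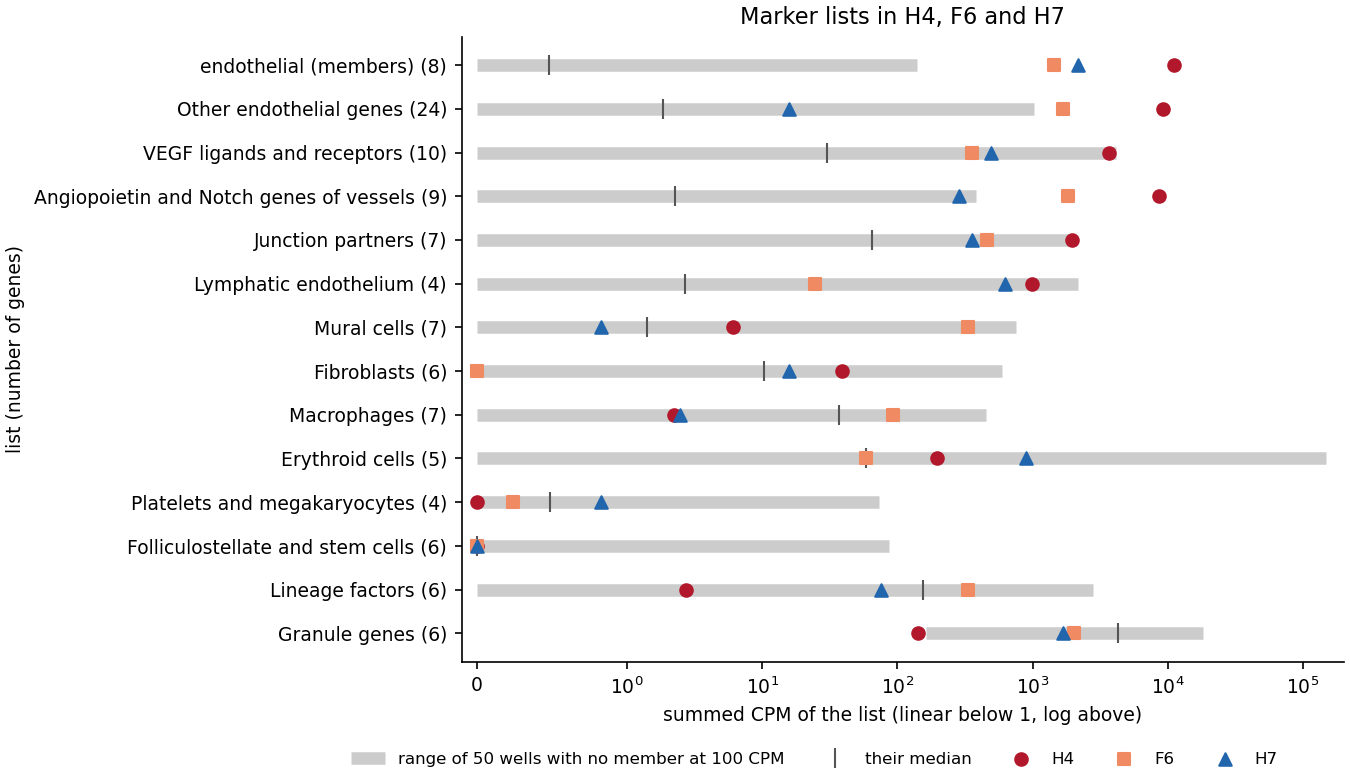
Summed CPM of each gene list in H4, F6 and H7 (points; the axis is linear below 1 and logarithmic above), with the range (grey bar) and median (tick) of the 50 wells with no marker at 100 CPM. H4 and F6 lie to the right of the bar for the 8 markers, the 24 other endothelial genes and the angiopoietin and Notch genes, and H4 lies to the left of the bar for the granule genes at 142 CPM.

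Hormone genes set H4 apart from the other marker wells. The 7 hormone genes took 1.88% of gene counts in H4, 39.3% in F6 and 24.7% in H7. In the wells with one marker they took 32.6% in B4, 50.9% in A2 and 57.5% in H9, and in the 50 wells with none between 0.923% and 81.0% with a median of 26.9%. H4 thus ranked 4 from the lowest of the 56 wells. The 3 lower ones, F4, B12 and H11, held 5, 2.46 and 4 counts of the markers, and none of them at 100 CPM.

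Prolactin (Prl) had a median of 229817 CPM in the 3 wells with several markers, with 14379 CPM in H4, 229817 CPM in H7 and 390971 CPM in F6. It had a median of 470534 CPM in the 3 wells with one marker and of 162103 CPM in the 50 wells with none, where it ran from 1216 to 776624 CPM. The levels of marker wells fell within the range of the wells with none, and H4 ranked 8 from the lowest. Growth hormone (Gh) stood at 4356 CPM in H4, 1486 CPM in F6 and 4964 CPM in H7, all below the median of 12030 CPM in the 50 wells. Pomc, the precursor of ACTH, stood at 27.0 CPM in H4, 53.1 CPM in F6 and 4378 CPM in H7, against a median of 5311 CPM. H4 and F6 ranked 2 and 4 from the lowest for Pomc. The median of the 3 wells, 53.1 CPM, became 4378 CPM for the 9 wells at 10 CPM. It was 903 CPM when Prl, Gh and Pomc were left out of the total, which both rescaled each level and added B4 to the 3 wells. Cga, the common subunit of the glycoprotein hormones, was low in H4 and F6, at 2.98 CPM and 5.04 CPM, and high in H7, at 5996 CPM, where Lhb also stood at 1584 CPM.

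The 6 granule genes summed to 142 CPM in H4, the lowest of the 56 wells, with 2009 CPM in F6, 1683 CPM in H7 and a median of 4248 CPM in the 50 wells with none, whose lowest was 162 CPM. Chgb (secretogranin 1) was at 13.1 CPM in H4, also the lowest of all wells, against 660 CPM in F6 and 1017 CPM in H7. Scg2 stood at 6.45 CPM in H4, 520 CPM in F6 and 632 CPM in H7, and Scg5 at 4.96 CPM, 752 CPM and 22.0 CPM. Chga, at 116 CPM in H4, was the exception and lay above the median of 80.3 CPM of the 50 wells. Pou1f1, the factor of lactotroph, somatotroph and thyrotroph lineages, stood at 1.74 CPM in H4, 281 CPM in F6 and 75.2 CPM in H7. Endothelial genes and those of a hormone cell were therefore read together in F6. In H4, endothelial genes were read with few transcripts of granules or of the lineage factor. Prl still stood at 14379 CPM in H4, above the summed 11165 CPM of the 8 markers, and Gh at 4356 CPM. Whether 1 cell or more gave the counts of F6 or of H4 was not tested, nor was the source of the Prl and Gh in H4.

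**Figure D4:**
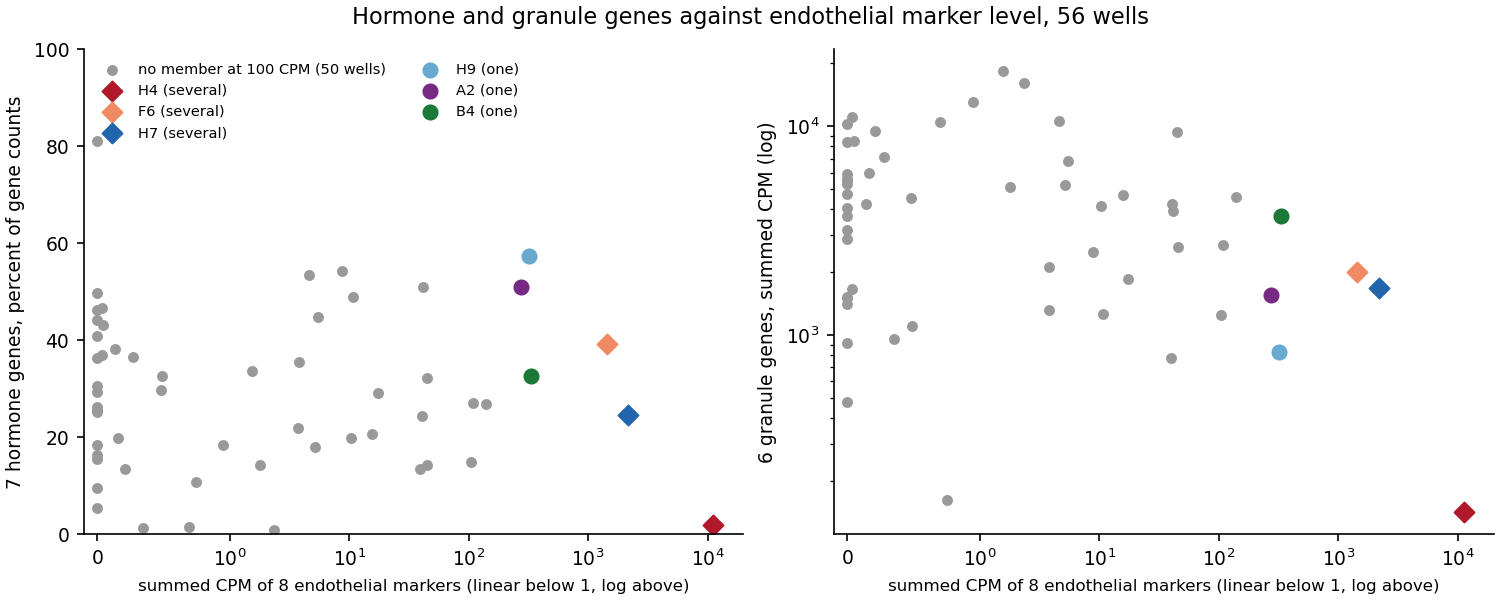
Share of gene counts in the 7 hormone genes (left, percent) and summed CPM of the 6 granule genes (right, log axis) against the summed CPM of the 8 endothelial markers, with 1 point for each of the 56 wells, diamonds for the 3 wells with several markers and coloured circles for the 3 with one. H4 lies alone at the lower right with 1.88% and 142 CPM, whereas the other 5 marker wells lie among the heights of the grey points.

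Co-variation of the markers over wells was given by Pearson's r of log2(CPM + 1), over the 28 pairs of genes, as a description: the points share depth and many zeros, and most wells are at 0 for most pairs. The median r was 0.56, from -0.07 to 0.87. Kdr with Egfl7 was highest at 0.87, then Plvap with Egfl7 at 0.80 and Kdr with Plvap at 0.78. Pecam1 varied least with the others apart from Cldn5, with r between 0.27 and 0.46 against the 6 other detected markers, and Cldn5 had a median r of -0.04.

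These values rested on H4 and F6. Without both wells the median fell to 0.12 over 54 wells, and the number of pairs over 0.5 went from 15 to 1. Kdr with Egfl7 went from 0.87 to -0.03 and Cdh5 with Kdr from 0.66 to -0.07, whereas Emcn with Esam, which H7 also holds, went from 0.77 to 0.60 and Cdh5 with Plvap from 0.75 to 0.50. Spearman's rank correlation had a median rho of 0.29 over 56 wells and 0.18 without H4 and F6. The number of markers with any count in a well had r = 0.35 with the log2 of its gene counts.

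**Figure D5:**
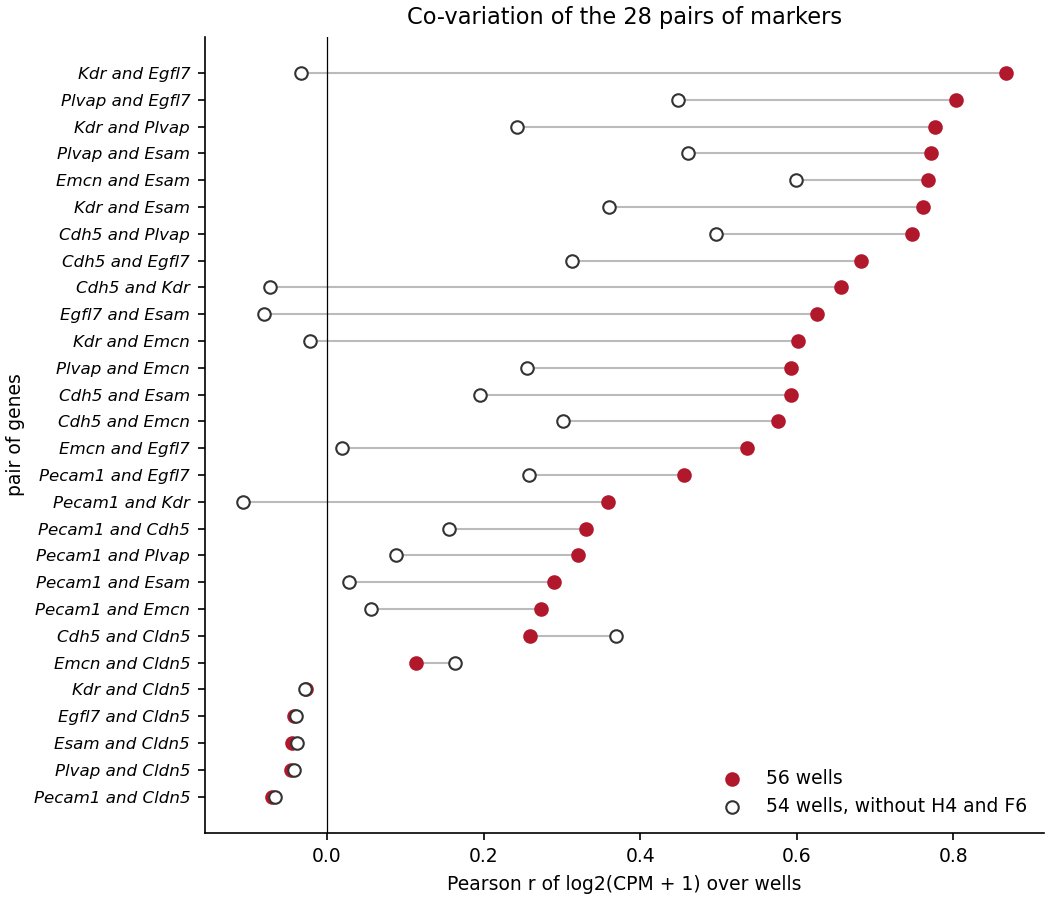
Pearson r of log2(CPM + 1) for each of the 28 pairs of marker genes over all 56 wells (filled) and over the 54 wells without H4 and F6 (open). Without both wells the points move left for each pair among Pecam1, Cdh5, Kdr, Plvap, Emcn, Egfl7 and Esam, and the median falls from 0.56 to 0.12.

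The genes most like the summed marker level were sought among 7564 genes, over the 46 wells with at least 100000 gene counts and with the 8 markers left out. Angpt2 came first with r = 0.80, and its r was 0.73 without H4 and 0.67 without H4 and F6. It was followed by Slfn5 at 0.77, Sp100 at 0.76, Gvin1 at 0.72 and Gm4070 at 0.70. Gvin1 and Gm4070 had nearly equal values, 534 and 521 CPM in H4 and 24.8 and 30.0 CPM in F6, and as near-identical copies that can share reads they are uncertain as separate genes. Slfn5, Sp100 and Gvin1 are known as interferon-responsive genes. Igfbp7, Cyp4b1, Ecscr, Timp3 and Lims2 completed the list of 10, at r between 0.68 and 0.66. Cyp4b1, a fatty acid and xenobiotic hydroxylase, stood at 1393 CPM in H4, 297 CPM in F6 and 318 CPM in H9, and its highest value in the 50 wells without a marker was 5.74 CPM. Timp3, a matrix protein that inhibits metalloproteinases and binds Kdr, stood at 3957 CPM in H4, 620 CPM in F6 and 195 CPM in H9. In the 50 wells without a marker its highest value was 351 CPM, that of Igfbp7 188 CPM and that of Lims2 593 CPM. Only 3 of the 10, Angpt2, Timp3 and Cyp4b1, remained among the first 10 without H4. The other 7 had a mean under 10 CPM once H4 was left out and were not ranked again, so their place on the list came through that well. Without H4 and F6 only Angpt2 remained among the first 10, a list then led by Fbxl20 with r between 0.69 and 0.59. The highest sums were then those of H7 and H9, where Emcn made up 94.0% and 99.9% of the marker counts. With rank correlation 5 of the 10 remained.

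Genes that H4 held almost alone were found by the ratio of its level to the next highest of the 46 wells, with 10 CPM added to both. The highest were Gm43571 at 737 CPM, B3gnt3, a glycosyltransferase of mucin-type chains, at 707 CPM, and Dcbld1 at 862 CPM, each at most 2.79 CPM in any other of these wells. Trim30d at 881 CPM, the homeobox gene Meox1 at 740 CPM and the adaptor gene Grap at 650 CPM came next. Olfr1372-ps1, annotated as a pseudogene, Smagp, Paqr5 and Kremen2 followed at 775, 421, 417 and 542 CPM. With 1 well, whether these genes mark a cell type or one cell cannot be told apart.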

How the data were processed

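Single cells from pituitary culture were captured on a Fluidigm C1 plate and sequenced after SMART-Seq v4 amplification, with ERCC spike-ins. What the authors deposited is 1 matrix of estimated counts, genes by wells, in which 33.5% of the values above 0 are fractional (tolerance 1e-09). Per the submitters' processing notes, STAR 2.5.1b, featureCounts 1.5.0-p1 and build mm10 were used, and the annotation release and strand setting are not given for these wells in the sources used here (the study's methods name a GENCODE release for its bulk RNA-seq). Gene IDs were matched to GENCODE M21 (46488 of 47069), which also gave symbols, places and exon lengths. From the deposited estimated counts, CPM were computed over the gene rows without the 92 ERCC rows, using Python 3.11.15, pandas 2.3.3 and scipy 1.17.1. A well held a marker at 100 CPM or more, and "several" meant 2 or more. The wells form 1 sample, so no test was made, and no doublet caller was run. Correlations used a pseudocount of 1. Genes most like the summed markers had a mean of at least 10 CPM and 1 CPM in 5 or more wells, and genes led by the well with the highest sum needed 100 CPM and 20 counts there. Named genes were the 8 markers, the hormone genes, the genes of the lists and the 10 genes of either ranking. The markers and lists were chosen with earlier results of these data known.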

Additional observations from a re-analysis of the deposited data

How the results depend on the processing

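The number of wells with several markers, 3 as reported, was 9 at 10 CPM and 1 at 1000 CPM, and lay within 1.5 times of 3 under the other alternatives. The number with exactly one, also 3, was 8 at 10 CPM, 1 at 1000 CPM, 1 at 100 TPM and 1 with spike-ins in the total. The median pairwise correlation of 0.56 fell to 0.12 without H4 and F6, an alternative chosen after seeing the data, as were those without C11 and, for the counts of wells, without the 2 wells under 2000 gene counts. The median Pomc level of 53.1 CPM was 4378 CPM at 10 CPM for a marker and 903 CPM with Prl, Gh and Pomc left out of the total. The other 56 of 65 comparisons for these results and the Prl and Gh levels stayed within 1.5 times for counts, or within 1 SD over pairs or wells otherwise. The class with several markers held between 1 and 9 wells, so its medians can be set by 1 well. Of 42 comparisons for single genes and for the ranking, 15 moved, each a detection count under another limit or depth, or the list of similar genes. Detection depends on depth: 3 counts are worth 0.744 CPM in H4 and 124 CPM in B4. No paired analysis was possible because the wells form 1 group.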
